A study of Homo sapiens with 6 samples.

Results

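Small nucleolar RNAs and small Cajal body RNAs were examined as RNAs that can be cross-linked to eIF4B, the translation initiation factor that stimulates the helicase eIF4A. Members were all rows of the deposited cross-link tables whose gene name starts with SNORD or SNORA followed by a digit, or with SCARNA followed by a digit. By this rule 234 of the 22125 gene identifiers listed in the tables were members: 129 C/D box RNAs (SNORD), 84 H/ACA box RNAs (SNORA) and 21 Cajal body RNAs (SCARNA). Merging identifiers that overlap on the same strand left 225 loci (126 SNORD, 80 SNORA and 19 SCARNA), which are the unit of the counts below unless genes are named.

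iCLIP, a cross-linking and immunoprecipitation method, maps the base next to which reverse transcription stopped at a cross-linked protein. It was carried out with an anti-eIF4B antibody in untreated cells of DoHH-2, a line derived from diffuse large B-cell lymphoma (DLBCL), and of GM01953, a B-cell line from disease-free donors that served as the control and is not isogenic with DoHH-2. By the labels DoHH-2 had 4 replicates and GM01953 had 2, each cross-linked with 150 mJ/cm2 of UVC light, but the tables hold 1 pooled value per cell line, so no spread between replicates and no test between the cell lines could be given. All intervals are 95% and cover counting error only. DoHH-2 held 2033156 cDNA counts and GM01953 held 167197, a 12.2-fold difference in depth, and levels are given as CPM, counts per 1000000 counts of the table. A single count equals 0.492 CPM in DoHH-2 and 5.98 CPM in GM01953. A count of 0 allows up to 3 counts, which is 1.48 CPM in DoHH-2 and 17.9 CPM in GM01953. Levels of the RNAs in the cells were not measured in these tables, so more contact with eIF4B and more of the RNA cannot be told apart.

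C/D box RNAs pair with rRNA through the bases just upstream of a D box and direct 2′-O-methylation by fibrillarin, whereas H/ACA box RNAs fold into a pair of hairpins and direct pseudouridylation by dyskerin. A few members, among them U3, U8, U13, U14, U22 and U17, act mainly in cleavage or modification of pre-rRNA rather than as ordinary methylation guides. Cajal body RNAs carry the same boxes but guide modification of spliceosomal small nuclear RNAs. Most members are cut out of introns of host genes, many of which encode ribosomal proteins or translation factors, and mature members are found in the nucleolus or the Cajal body, while eIF4B is mainly cytoplasmic.

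Sequences of selected members are given first, 5′ to 3′ as DNA letters of the transcribed strand of GRCh38. Not every member with a high single base is shown: SNORD66, with 15 counts on nt 30 in DoHH-2, is left out. Capitals mark bases with at least 3 counts in either cell line. For RNAs over 150 nt, and for SNORD118, which overlaps a UTR, only the stretch around the base with the most counts is shown (for SNORD118 in DoHH-2 and then in GM01953). SNORD118 (U8) and SNORD3A (U3) are the C/D box RNAs with the most counts in DoHH-2, SNORD97, SNORD26, SNORD28 and SNORD88A show counts held by few bases, the SNORA entries show where counts lay within H/ACA box RNAs, and the SCARNA entries hold the highest single bases of their class.
SNORD118 nt 53 to 82, chr17:8173506-8173535, minus strand: cAtgatGATtggaGaTGcatGaAacgtGAT
SNORD118 nt 94 to 123, chr17:8173465-8173494, minus strand: cgTaatcagGaCtTGCaacaccctgattgc
SNORD3A nt 37 to 116, chr17:19188052-19188131, plus strand: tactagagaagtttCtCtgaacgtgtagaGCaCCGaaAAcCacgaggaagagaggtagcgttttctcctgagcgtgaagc
SNORD97, chr11:10801467-10801608, minus strand: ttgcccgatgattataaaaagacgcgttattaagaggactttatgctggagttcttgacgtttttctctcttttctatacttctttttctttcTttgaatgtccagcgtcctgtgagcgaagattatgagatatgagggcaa
SNORD26, chr11:62855292-62855366, minus strand: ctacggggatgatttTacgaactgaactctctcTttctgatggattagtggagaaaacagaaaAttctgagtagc
SNORD28, chr11:62854621-62854695, minus strand: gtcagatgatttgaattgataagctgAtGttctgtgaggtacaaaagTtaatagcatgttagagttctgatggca
SNORD88A, chr19:50799442-50799532, minus strand: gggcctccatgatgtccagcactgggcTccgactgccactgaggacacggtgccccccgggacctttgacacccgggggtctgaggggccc
SNORA48, chr17:7574713-7574847, plus strand: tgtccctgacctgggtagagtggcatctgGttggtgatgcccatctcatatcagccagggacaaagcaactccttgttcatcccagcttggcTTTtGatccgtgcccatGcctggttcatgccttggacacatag
SNORA57, chr11:62665422-62665570, plus strand: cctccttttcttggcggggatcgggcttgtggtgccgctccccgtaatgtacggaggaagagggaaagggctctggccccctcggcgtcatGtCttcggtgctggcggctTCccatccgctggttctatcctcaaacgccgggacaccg
SNORA19, chr10:119060011-119060138, minus strand: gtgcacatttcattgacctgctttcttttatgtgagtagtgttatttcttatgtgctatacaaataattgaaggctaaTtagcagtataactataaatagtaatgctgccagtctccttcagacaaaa
SNORA44, chr1:28580381-28580512, minus strand: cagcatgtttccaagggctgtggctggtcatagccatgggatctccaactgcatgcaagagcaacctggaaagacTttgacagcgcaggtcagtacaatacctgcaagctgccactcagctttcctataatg
SCARNA2 nt 100 to 179, chr1:109100292-109100371, plus strand: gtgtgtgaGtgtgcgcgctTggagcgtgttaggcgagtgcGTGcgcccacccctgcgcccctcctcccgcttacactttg
SCARNA10 nt 244 to 323, chr12:6510465-6510544, plus strand: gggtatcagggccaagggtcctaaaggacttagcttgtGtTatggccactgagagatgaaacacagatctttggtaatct

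The members together took a small share of eIF4B cross-links, and the share was higher in GM01953. In DoHH-2 they held 1961 counts at 1089 positions, 0.0965% of all counts (Wilson interval 0.0923 to 0.101), and in GM01953 they held 266 counts at 134 positions, 0.159% (0.141 to 0.179). The share in GM01953 was thus 1.65 times that in DoHH-2 (exact interval of the ratio 1.45 to 1.88). C/D box RNAs held most of the counts in both lines, 1290 of 1961 in DoHH-2 (65.8%) and 181 of 266 in GM01953 (68%). H/ACA box RNAs held 421 and 50 counts, and Cajal body RNAs 250 and 35.

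SNORD stood, in CPM, at 634 in DoHH-2 and 1083 in GM01953, SNORA at 207 and 299, and SCARNA at 123 and 209. The ratio of GM01953 to DoHH-2 was 1.71 for SNORD (1.45 to 1.99), 1.44 for SNORA (1.05 to 1.94) and 1.70 for SCARNA (1.16 to 2.43), so the intervals of the 3 classes overlapped. When only positions with an FDR below 0.05 were counted, the SNORD ratio was 1.02. The SNORA ratio rested on positions that were nearly all listed under a host gene as well.

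**Figure D1:**
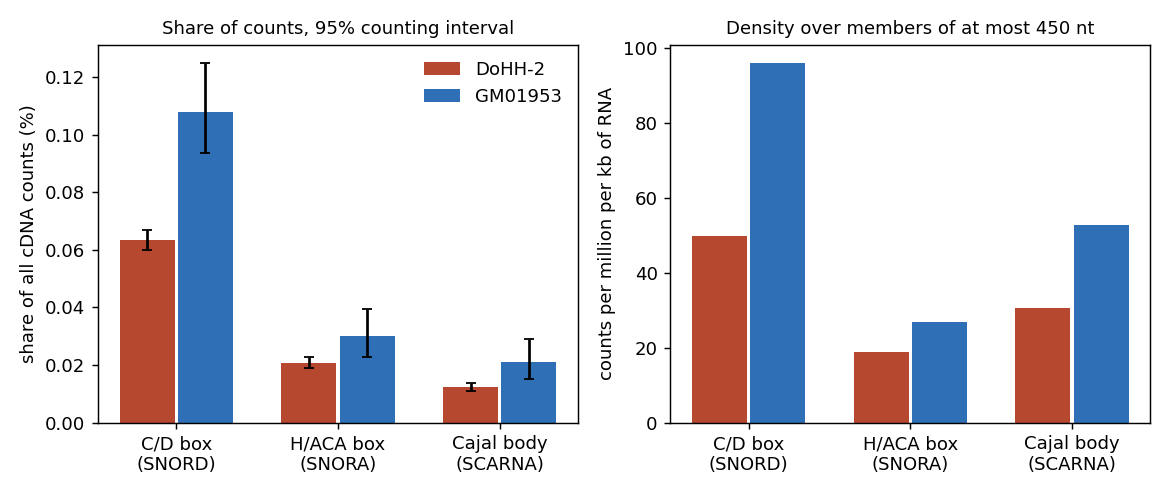
Share of all cDNA counts in percent (left, bars from 0, whiskers are Wilson 95% intervals for counting error) and CPM per kb of RNA over members of at most 450 nt (right) for SNORD, SNORA and SCARNA in the pooled DoHH-2 and GM01953 tables. SNORD is highest on both scales in both lines, and each class is higher in GM01953.

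SNORD also led per length, while SCARNA stood above SNORA on this scale in both lines. Over the 220 loci of at most 450 nt (a few annotated genes, such as those of U3, run far past the mature RNA), SNORD had 49.7 CPM per kb in DoHH-2 and 96 in GM01953, SCARNA 30.5 and 52.8, and SNORA 18.7 and 26.9. As averages over classes in which most loci had few counts, these densities lay well below those of other abundant non-coding RNAs on the same scale. Single members differed: SNORD118, with 114 CPM on 134 nt in DoHH-2, stood far above the average of its class. The spliceosomal U4 and U5 RNAs had 1569 and 3117 CPM per kb, and RNAs made by RNA polymerase III had 316 and 594. Higher values in GM01953 were therefore not particular to the members.

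Almost every member had few counts. In DoHH-2, 230 of the 234 member genes were listed with at least 1 count, and in GM01953 79 were, of which 75 were listed in both. Drawing the DoHH-2 counts down to the GM01953 total would leave 80.5 members with a count, close to the 79 seen. At the level of loci, 75 of 221 in DoHH-2 had only 1 or 2 counts, and 41 of 74 in GM01953. The median over loci with a count was 4.0 in DoHH-2 and 2.0 in GM01953.

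Member genes held a site (a position with an FDR below 0.05, as deposited) less often than other genes. In DoHH-2 51 of 230 listed member genes had a site (22.2%), against 50.0% of all genes listed, and in GM01953 16 of 79 did (20.3%), against 64.0%. By class, 8 of 20 SCARNA genes, 31 of 127 SNORD genes and 12 of 83 SNORA genes had a site in DoHH-2. Genes with fewer counts had fewer sites: among those with 3 to 9 counts in DoHH-2, 16 of 107 members (15%) and 29.2% of all genes had one. Among genes with 10 to 30 counts the order was turned, with 24 of 36 members (66.7%) and 49.2% of all genes. In GM01953 it was not: 12 of 28 members with 3 to 9 counts (42.9%) had a site, against 77.0% of all genes, and 4 of 6 with 10 to 30 counts (66.7%), against 95.8%.

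More than 20 counts at sites were held by 11 of 230 member genes in DoHH-2 (4.78%), against 22% of all genes, and by 0 of 79 in GM01953, against 7.28%. The 11 genes carried the names SNORD118, SNORD13, SNORD3A, SNORD3C, SNORD97, SNORA48, SNORA57, SCARNA2 and SCARNA10, some of them under more than 1 identifier. All 11 members with 31 to 300 counts in DoHH-2 had at least 1 site, against 89.2% of all genes in that range. No member had as many counts in GM01953.

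Only 3 loci were deep enough for the comparison between cell lines, which required a mean of 60 CPM. SNORD118 had 231 counts in DoHH-2 against 27 in GM01953 (114 and 161 CPM, ratio of DoHH-2 to GM01953 0.704, interval 0.471 to 1.09). SNORD13 had 105 and 22 counts (51.6 and 132 CPM, ratio 0.392, 0.246 to 0.653). SCARNA2 had 103 and 20 counts (50.7 and 120 CPM, ratio 0.424, 0.261 to 0.722). Thus 0 of 3 were at least 2-fold higher in DoHH-2, against 16.4% of the 3656 genes that passed the same minimum, and 2 of 3 were at least 2-fold higher in GM01953, against 18.7%. SNORD13 and SCARNA2 were below 60 CPM in DoHH-2 and passed the minimum only through GM01953, so the filter itself favoured this direction. The U3 copies were counted singly and none passed. With 3 loci no share can be read from this.

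The list of RNAs with roles in pre-rRNA processing held a few of the highest members and many low ones. Its 17 loci held 629 counts in DoHH-2 (309 CPM) and 69 in GM01953 (413 CPM), while the median locus had 5.0 and 1.0 counts. Most counts came from SNORD118, SNORD13 and the SNORD3 copies. SNORD118, the U8 RNA needed for maturation of the 5.8S and 28S rRNAs, was the highest member in both cell lines. Its gene lies in an annotated exon of TMEM107 on the same strand. It held 20 sites in DoHH-2 and 4 in GM01953, and the flanks of the same width held 19 counts in DoHH-2 and 1 in GM01953, so its counts stood well above those of the surrounding transcript.

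The counts within SNORD118 were spread over the RNA in DoHH-2, and the 10 nt with the most counts differed between the lines. In DoHH-2 the highest bases were nt 68 with 18 counts and nt 107 with 13. The 10 nt with the most counts in DoHH-2, nt 45 to 54, held 42 of its 231 counts (18.2%) and none of the 27 of GM01953. The 10 nt with the most counts in GM01953, nt 100 to 109, shown in the second SNORD118 line, held 13 of 27 counts there (48.1%) and 27 of 231 in DoHH-2 (11.7%).

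U3, which base-pairs with the 5′ external transcribed spacer of the pre-rRNA and directs the first cleavages towards 18S rRNA, is encoded by near-identical copies. The 5 SNORD3 loci held 217 counts in DoHH-2, of which SNORD3A had 111 and SNORD3C 94, and 10 counts in GM01953, of which SNORD3A had 4 and SNORD3C 3. How reads were divided among the copies is uncertain, since only 26 and 2 of these counts were followed by a word of 31 nt that occurs once in the genome. Over the 5 loci together U3 stood at 107 CPM in DoHH-2 against 59.8 CPM in GM01953. The ratio of DoHH-2 to GM01953 was 1.78 with an interval (0.952 to 3.77) that held 1. With the U3 copies that the tables name without a SNORD symbol, 7 loci in all, there were 269 and 12 counts and the ratio was 1.84 (1.04 to 3.61), so the interval held 1 or not depending on the copies counted.

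The U3 counts were mostly held by a short stretch, shown in the SNORD3A line. The shortest stretch with at least 90% of the DoHH-2 counts was nt 49 to 77, which held 196 of the 217 (90.3%). A further 11 fell on nt 1 to 48 and 2 on nt 78 to 217, where the RefSeq U3 RNA ends. In GM01953 6 of 10 fell on the same stretch. The highest bases of SNORD3A in DoHH-2 were nt 77 with 17 counts, nt 67 with 13 and nt 66 and 74 with 12 each.

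SNORD13 (U13), which assists acetylation of 18S rRNA, lies outside other genes and held 105 counts in DoHH-2 and 22 in GM01953. The 10 nt with the most counts overlapped between the lines, with nt 67 to 76 in DoHH-2 (48 of 105 counts) and nt 62 to 71 in GM01953 (12 of 22). None of its positions in GM01953 was a site, against 10 in DoHH-2. The other members of the list were low: SNORA73A and SNORA73B, the 2 copies of U17 in SNHG3, had 25 and 13 counts in DoHH-2 and 0 and 3 in GM01953. Of the U14 copies SNORD14E had 12 and 2 counts and SNORD14A 11 and 1. The 2 loci named SNORD22, the U22 RNA of SNHG1, had 4 and 3 counts in DoHH-2 and 0 and 3 in GM01953.

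Members in SNHG1, a non-coding gene whose introns carry a run of C/D box RNAs, were 7 loci with 73 counts in DoHH-2 against 18 in GM01953 (35.9 and 108 CPM). Without the 2 loci of U22 the methylation guides among them were 5 loci with 66 and 15 counts. SNORD26 had 25 and 6 counts and SNORD28 23 and 4. The base with the most counts differed between the lines in both RNAs. In SNORD26 nt 64 held 12 of the 25 counts in DoHH-2, while nt 16 held all 6 in GM01953 and 3 in DoHH-2. In SNORD28 nt 27 held 11 counts in DoHH-2 and nt 48 held all 4 in GM01953. The 4 members in RPL13A, a ribosomal protein gene, had 35 and 12 counts, led in DoHH-2 by SNORD35A with 13 and in GM01953 by SNORD34 with 8, which also had 8 in DoHH-2. Only 2 loci of the imprinted tandem arrays were listed, both SNORD116 copies, with 3 counts in DoHH-2 and 0 in GM01953.

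Other C/D box members with high counts lay in a range of host genes. SNORD97, inside EIF4G2, had 31 counts in DoHH-2 against 5 in GM01953. In DoHH-2 nt 90 to 99 held 24 of the 31 (77.4%), 15 of them on nt 94. SNORD58B, in RPL17, had 35 and 10 counts. Its flanks of the same width on both sides held 32 and 3 counts, so in DoHH-2 it stood less than others above the transcript around it. SNORD45A, in RABGGTB, had 25 and 1 counts. SNORD88A was the member with the most unequal counts: it had 3 counts in DoHH-2 against 13 in GM01953 (1.48 and 77.8 CPM, ratio 0.0190, interval 0.00347 to 0.0691), and nt 28 held 11 of the 13, so this value rests on 1 base.

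Of the H/ACA box members, SNORA48 and SNORA57 led in DoHH-2 and had 1 count each in GM01953. SNORA48, which lies in EIF4A1, the gene of the helicase that eIF4B stimulates, had 51 counts in DoHH-2, with 35 of them (68.6%) on nt 88 to 97 and 14 on nt 95. The flanks held 154 counts in DoHH-2 over 270 nt, against 51 over 135 nt in the RNA, so the host transcript around it was cross-linked more densely than SNORA48 itself. SNORA67, also in EIF4A1, had 12 and 0 counts beside 55 and 4 in its flanks. SNORA57, in CSKMT, had 30 counts, 17 of them on nt 107 to 116, and 15 counts in its flanks. SNORA70, in RPL10, had 17 and 0 counts, of which 6 were followed by a unique word.

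In GM01953 the highest H/ACA box members were others. SNORA19, in an intron of EIF3A, had 6 counts in DoHH-2 against 7 in GM01953, and SNORA44, in SNHG12, had 9 and 7. In both, single bases held the GM01953 counts: nt 79 of SNORA19 held all 7 and nt 76 of SNORA44 held 6 of 7 and none of the 9 in DoHH-2. SNORA13 had 2 and 4 counts, SNORA33 10 and 4, and SNORA62 12 and 4.

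Among the Cajal body RNAs SCARNA2, which guides 2′-O-methylation of the U2 small nuclear RNA and is transcribed from its own gene rather than from an intron, held 103 of 250 counts in DoHH-2 and 20 of 35 in GM01953. No count fell in its flanks in either line. All 20 counts of GM01953 lay on nt 141 and 142, and the 10 nt with the most counts in DoHH-2, nt 136 to 145, held 33 of its 103 (32%). The highest base was nt 141 in GM01953 with 17 counts and nt 140 in DoHH-2 with 17, followed by nt 141 with 11. DoHH-2 also had counts further on, with 6 on nt 344 and 7 on nt 359, where GM01953 had none.

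SCARNA10, which guides both kinds of modification of U5, had 39 counts in DoHH-2 against 2 in GM01953, with 27 of the 39 on nt 277 to 286. SCARNA9 had 23 and 2 counts and held 10 of the 23 on nt 298. SCARNA13 had 19 and 3, SCARNA7 19 and 0, SCARNA12 13 and 1, SCARNA5 7 and 0 and SCARNA14 6 and 0. SCARNA20 and SCARNA6 were higher in GM01953 by counts, with 1 and 4 and with 0 and 3, which is at the limit of detection.

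**Figure D2:**
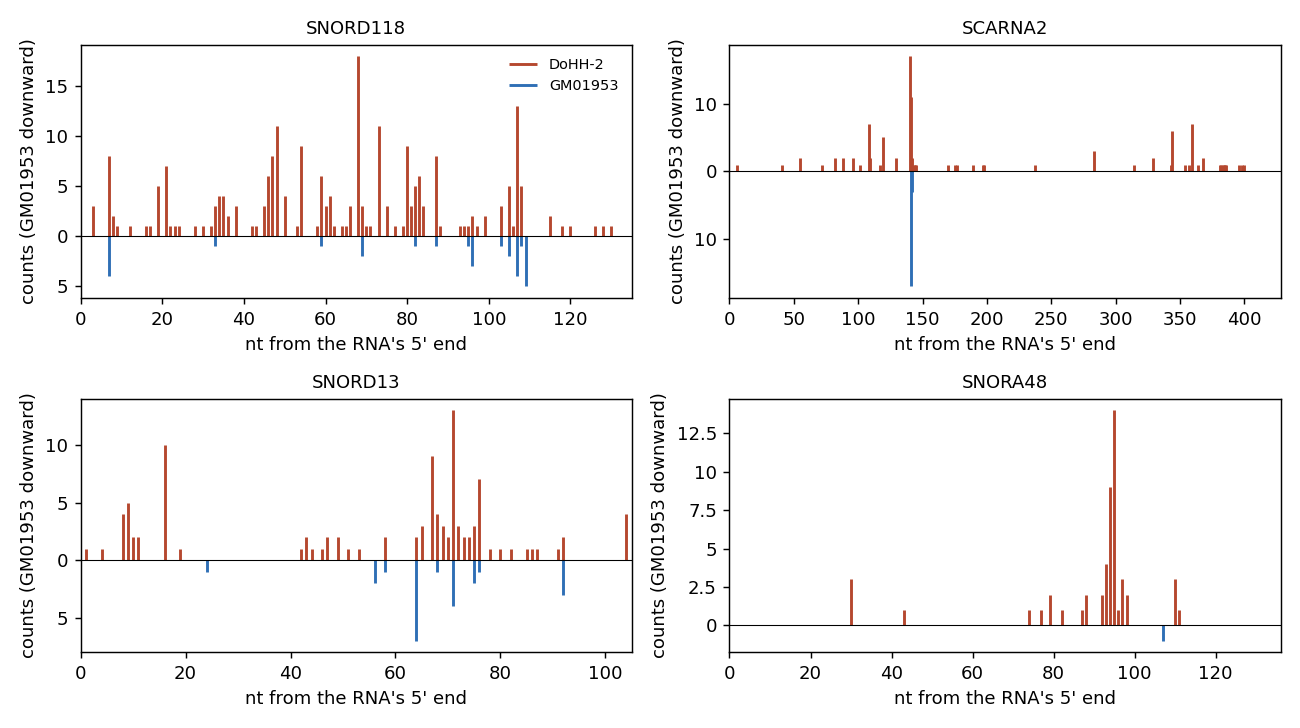
Counts per base along SNORD118, SCARNA2, SNORD13 and SNORA48, in nt from the 5′ end of the RNA, with DoHH-2 upward and GM01953 downward on the same linear scale. SCARNA2 has its highest base at nt 140 in DoHH-2 and at nt 141 in GM01953, SNORD13 its highest between nt 62 and 76, and SNORA48 has 35 DoHH-2 counts on nt 88 to 97 and 1 count in GM01953.

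Counts were unevenly placed along the RNAs, and the place differed between the box classes. When each RNA was divided into 5 equal parts, the fourth held 220 of 421 SNORA counts in DoHH-2 (52.3%) and 29 of 50 in GM01953 (58%), while the first held 4.75% and 0. In GM01953 none of the 50 SNORA counts lay in parts 1 and 2. SNORD counts were spread over the first 4 parts, with 4.19% in the last part in DoHH-2 and 6.08% in GM01953. Without the SNORD3 copies the first part of SNORD held 13.8% in DoHH-2 and 6.43% in GM01953, and parts 2 and 3 held 30.9% and 29.5% in DoHH-2. SCARNA counts lay in the last part at 42.8% and 31.4%. Without SCARNA2 these shares were 53.7% and 73.3%.

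Measured from the 3′ end, SNORD and SNORA had most of their counts in the same stretch. The SCARNA loci, which are longer, had a smaller part of their counts there, though in DoHH-2 more than the share of bases. Of the SNORD counts in loci of at most 450 nt, 53.5% in DoHH-2 (50.5 to 56.5) and 52.6% in GM01953 (45.2 to 60) lay 31 to 60 nt from the 3′ end, which holds 34.3% of their bases. Of the SNORA counts, 59.6% (54.9 to 64.2) and 76% (62.6 to 85.7) lay there, in 21.6% of the bases. The median distance from the 3′ end was 49 nt for SNORD and 47 nt for SNORA in DoHH-2, and 41 and 50 nt in GM01953. Of the SCARNA counts 33.7% (28.1 to 39.9) and 22.9% (12.1 to 39.0) lay in this stretch, in 13.6% of the bases, and their median distance was 75 nt in DoHH-2 and 286 nt in GM01953, where SCARNA2 held most of them. The last 20 nt held 4.83% of SNORD counts and 5.46% of SNORA counts in DoHH-2, in 22.9% and 14.4% of the bases. A cDNA that starts at the 3′ end of such a short RNA and stops within its last bases is too short to be mapped, and the part of this limit in the pattern was not tested.

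The boxes were located by their letters. TGATGA, the C box, was found in the first 30 nt of 75 of 126 SNORD loci (59.5%) and of 1 of 80 SNORA loci, CTGA, the D box, in the last 30 nt of 118 SNORD loci (93.7%), and ACA in the last 10 nt of 71 SNORA loci (88.8%). In the 74 SNORD loci with both boxes, 81.1% of counts in DoHH-2 and 81.4% in GM01953 lay between the C box and the 15 nt before the D box, a stretch with 54.5% of the bases. The 15 nt just before the D box, where a guide can pair with its target, held 4.61% and 11.9% of counts in 17.7% of the bases. The D box itself held 2 counts in DoHH-2 and 0 in GM01953. These last stretches are also those nearest to the 3′ end. Only a D box in the last 30 nt was searched for, so guide bases before an internal one were not separated from the middle stretch.

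The base at the cross-link was a T (U in the RNA) more often than the composition of the members gives. T held 39.3% of counts in DoHH-2 and 51.9% in GM01953, where 29% and 28.4% of the bases of these members, weighted by their counts, were T. A held 13.8% and 7.14% of counts against 22.6% and 23.2% of bases. When each position was taken once, whatever its count, T was the base at 40.4% of DoHH-2 positions and 41.0% of GM01953 positions. The higher share of T in GM01953 was thus seen in counts and not in positions. Of the 138 T counts of GM01953, nt 141 of SCARNA2 held 17 and nt 28 of SNORD88A held 11. The share of counts on T was close in the 3 classes in DoHH-2, with 39.1% in SNORD, 39.0% in SNORA and 40.8% in SCARNA. UV light itself cross-links uridines most readily, and its part in this share was not tested.

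About as many GM01953 counts lay on bases that also had counts in DoHH-2 as on bases that had none. Of the 134 GM01953 positions 65 (48.5%) had a count in DoHH-2, and DoHH-2 had 1089 positions in all. Of the 266 GM01953 counts, 137 (51.5%) lay on a base that also had a count in DoHH-2, and such bases made up 5.31% of the RNAs concerned. Within 3 nt the share was 208 of 266 (78.2%), in 21.2% of the bases. Both shares of bases weigh every base alike and take in U3 genes that run past the mature RNA. The RNAs with the most counts were covered more densely. In DoHH-2, 69 of the 134 bases of SNORD118 and 38 of the 104 of SNORD13 had a count. The excess over 5.31% therefore overstates how far the lines shared bases. By class, 54.7% of SNORD counts, 77.1% of SCARNA counts and 22% of SNORA counts fell on the same base.

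Because most members lie inside host transcripts, the counts in each RNA were set against flanks of the same width on both sides. SNORD bodies had 3.83 times the density of their flanks in DoHH-2 (3.48 to 4.21) and 8.62 times in GM01953 (6.13 to 12.4), and SCARNA bodies 5.43 times (4.26 to 6.98) and 11.7 times (4.86 to 33.9). For SNORA the summed ratio was 0.488 in DoHH-2 (0.438 to 0.543) and 1.15 in GM01953 (0.795 to 1.65). The DoHH-2 value rested on a few loci with dense flanks: the 5 with the most flank counts, SNORA31, SNORA21, SNORA52, SNORA48 and SNORA50C, held 1044 of 1725 flank counts (60.5%). Locus by locus, SNORA loci with a count in the RNA or its flanks numbered 79 in DoHH-2 and 33 in GM01953. The RNA was denser than its flanks in 47 and 20 of them. Only 23 of the 33 had a count in the RNA itself, and the 20 were among these. For SNORA loci in introns alone the summed ratio was 0.987 (0.740 to 1.31) in DoHH-2 and, with 20 counts in the RNAs and 5 in the flanks, 8.0 (2.91 to 27.3) in GM01953. Counts in a SNORA from the mature RNA and from the host transcript cannot be told apart.

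**Figure D3:**
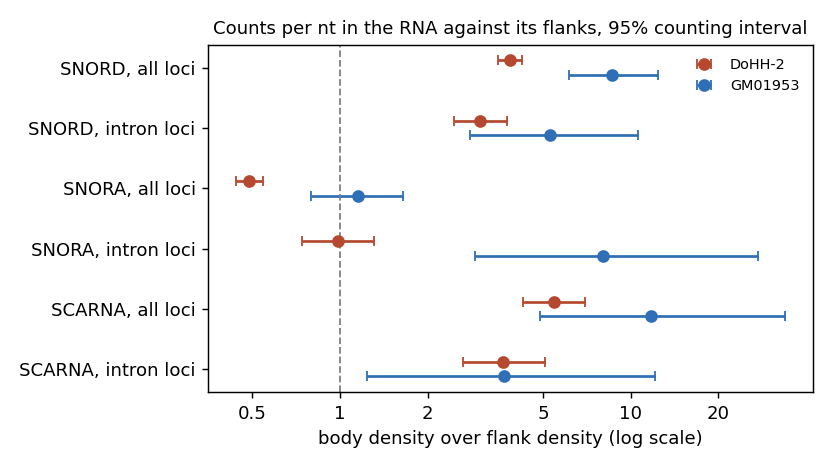
Ratio of counts per nt in the RNA to counts per nt in flanks of the same width on each side, on a log axis with 95% counting intervals, for all loci and for loci in introns in DoHH-2 and GM01953, with the dashed line at equal density. SNORD and SCARNA lie above 1 in both lines, while SNORA lies at 0.488 over all loci in DoHH-2.

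By annotation, 17.3% of member counts in DoHH-2 and 15% in GM01953 lay in exons of coding transcripts of other genes. In both lines 39.8% lay in exons of transcripts not annotated as protein-coding, some of them transcripts of coding genes such as EIF4A1. A further 21.3% and 25.6% lay in introns, and 21.6% and 19.5% outside other genes. The loci outside other genes, SNORD3 copies, SNORD13 and SCARNA2 among them, had the clearest contrast, with 426 counts in the RNAs and 14 in the flanks in DoHH-2.

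The mRNAs of the proteins that form and assemble these particles are given as lists of the same pathway. They are far longer than the RNAs, so their summed levels cannot be set against those of the RNAs. The 5 mRNAs of C/D box proteins held 1831 counts in DoHH-2 against 129 in GM01953 (901 and 772 CPM), the 4 of H/ACA box proteins 1429 and 65 (703 and 389), and the 14 of assembly factors 2146 and 138 (1056 and 825). DKC1, the mRNA of the pseudouridine synthase dyskerin, had 930 and 23 counts (ratio of DoHH-2 to GM01953 3.33, 2.20 to 5.27), FBL, the mRNA of the methyltransferase fibrillarin, 316 and 12 (2.17, 1.22 to 4.24), and NOLC1, which encodes a chaperone of both particles, 645 and 26 (2.04, 1.38 to 3.15). The assembly factor mRNAs RUVBL1, with 360 and 10 counts (2.96, 1.59 to 6.23), and NUFIP1, with 116 and 0 (lower bound 2.55), were also higher in DoHH-2. SNU13 (0.526, 0.376 to 0.754), SHQ1 (0.309, 0.204 to 0.483) and WRAP53 (0.297, 0.158 to 0.599), the last of which encodes the protein that brings RNAs to the Cajal body, had lower values in DoHH-2. The lists were therefore not of 1 direction, and the differences cannot be separated from the levels of the mRNAs.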

How the data were processed

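Cross-link tables of eIF4B iCLIP in DoHH-2 and GM01953 were used, 1 per cell line. The authors removed PCR duplicates with BBMap dedupe, demultiplexed with Je, mapped to GRCh38 with HISAT2, pooled replicates, and deposited the cDNA counts per position and the FDR, an adjusted p-value, from iCount. Versions of these tools and the annotation release are not given in the sources used here. The extended score column that was deposited was not used.

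Positions listed under several genes were counted once. Members and lists were chosen with earlier results of these data known. Named members were, per class, the 8 with the most counts in DoHH-2 and the 5 in GM01953, with the pre-rRNA list, the other lists and members past 2-fold. Coordinates were read from GENCODE release 44 and the hg38 genome with pysam 0.24.0. Table positions count from 0, and 1 was added. Shares carry Wilson intervals and ratios exact conditional intervals (SciPy 1.17.1). Counts under 3 were set to 3 before calling a 2-fold ratio. A word was called unique if its 31 nt occur once in hg38. The scripts were tested on simulated data. The alternatives tried are given in the closing section.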

Additional observations from a re-analysis of the deposited data

How the results depend on the processing

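No paired analysis was possible because the tables hold 1 pooled column per cell line and no column carries a replicate number, and for the same reason no replicate was left out. The main limit was depth: the GM01953 values of nearly all members are a few counts, and duplicates left among reads from these short RNAs would count as separate cDNAs.

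The ratio of GM01953 to DoHH-2 over all members stayed above 1 under every alternative run, with 1.28 at positions of an FDR below 0.05 and 1.37 at positions of at least 2 counts as the lowest. Under these 2 settings the SNORD ratio was 1.02 and 1.34, the SNORD to SNORA count ratio in DoHH-2 was 4.82 and 4.60, and the share of all members in DoHH-2 was 0.0897% and 0.112%. At FDR positions alone the share in GM01953 was 0.115% and the SCARNA ratio 2.60. Over assigned counts the shares were 0.107% in DoHH-2 and 0.189% in GM01953. Without SNORD118 the share in DoHH-2 was 0.0851%.

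Leaving out positions also listed under a gene outside the rule moved most: the shares were 0.0209% and 0.0311% and the SNORD ratio 1.22, and SNORA kept too few counts for a ratio. Counting positions gave a SNORD ratio of 2.08 and a SNORD to SNORA ratio of 2.26 in DoHH-2. Of the members' number, at least 3 counts were held by 34 genes in GM01953, and the DoHH-2 number expected at the GM01953 total was 80.5. At the minimum of 120 CPM 0 loci were past 2-fold, since only SNORD118 passed it.

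Giving each RNA with at least 10 counts equal weight put 6.86% of SNORD counts and 55.0% of SCARNA counts in part 5 of the RNA in DoHH-2, and 0% of SCARNA counts in GM01953, where only SCARNA2 had 10 counts. Without SCARNA2 the SCARNA shares were 53.7% and 73.3%.

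Alternatives added after seeing the data were these. Unique words alone gave a share of 0.0844% and a SNORD to SNORA ratio of 2.71 in DoHH-2. With RefSeq members not named in the tables the shares were 0.121% and 0.180% and the SNORD to SNORA ratios 1.98 and 2.53. Outside exons of other genes the shares were 0.0414% and 0.0718%, the SNORA ratio of GM01953 to DoHH-2 3.04 and the SNORD to SNORA ratio in DoHH-2 6.86. In introns alone the ratio of body to flank density was 3.03 in DoHH-2 and 5.29 in GM01953 for SNORD, 0.987 and 8.0 for SNORA, and 3.64 and 3.67 for SCARNA. The cause of these differences was not tested.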

Other observations

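RefSeq annotates snoRNAs that the tables do not name. With RefSeq coordinates on GRCh38, 41 such RNAs held counts (492 in DoHH-2, 35 in GM01953), listed under their host genes or under no gene. SNORA100, named here after its values were seen, held 268 and 23 of these inside HNRNPU, more counts in DoHH-2 than SNORD118, and its counts cannot be told apart from those of the HNRNPU transcript. Without it the other 40 RNAs held 224 and 12 counts.

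GAS5, a non-coding gene whose introns carry a run of C/D box RNAs, had no member by name in either table. By RefSeq coordinates 9 of these RNAs held 85 of the 334 counts of GAS5 in DoHH-2 and 4 of 12 in GM01953. SNORD75 had 21 and 1 counts, SNORD76 17 and 1, SNORD79 11 and 2 and SNORD47 11 and 0.

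Copies of U3 and U8 that the tables name without a SNORD symbol are not members by the rule. The U3 copies among them had 52 counts in DoHH-2 against 2 in GM01953, and the U8 copies 51 against 7.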
